A study of Homo sapiens with 6 samples.

Results

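Cells set their internal pH with a small number of membrane carriers and one enzyme family, and 8 genes of this system are described here among the 42656 rows of the count table. They are the bicarbonate carriers SLC4A2, SLC4A4 and SLC4A7, the scaffold SLC9A3R1, and the carbonic anhydrases CA2, CA9, CA12 and CA13. The genes were chosen by function from a list drawn up with fold changes of these same libraries in view, SLC4A4 being among the largest falls. Their differences between the arms are therefore given as a description, without p-values. SLC9A3R1, which RefSeq now calls NHERF1, is a scaffold and carries no ion itself. All 8 symbols were found in the table, and 7 passed the low-count filter. CA9 did not.

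The libraries came from TOV21G, an established line of ovarian clear cell carcinoma. Cells were transduced with lentivirus at a high multiplicity of infection and harvested on day 3. The control arm, shCtrl, carried a scrambled hairpin and is labelled wild type. The other arm, shMEX3A, carried 1 hairpin against MEX3A, an RNA-binding protein, so hairpin and target cannot be told apart. Each arm has 3 libraries. The labels do not say that these came from separate cultures, so the spread between them may be technical.

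As background, carbonic anhydrases interconvert carbon dioxide with bicarbonate and a proton. CA2 and CA13 work in the cytosol, whereas CA9 and CA12 are anchored in the plasma membrane with their catalytic domain outside the cell. Sodium-driven carriers of the SLC4 family, among them SLC4A4 (NBCe1) and SLC4A7 (NBCn1), bring bicarbonate into the cell, and the anion exchanger SLC4A2 (AE2) lets it out in exchange for chloride. Tumour cells that make much lactic acid depend on this system to keep the cytosol from turning acid, and CA9 is a classical target of the hypoxia-inducible factors (HIF).

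Library totals ran from 34662635 to 48228216 counts. MEX3A fell from 69.0 ± 1.54 to 20.9 ± 1.31 CPM (counts scaled to library size by TMM; SD, n = 3 each), with a log2 fold change of -1.72 (SE 0.046). An adjusted p under 0.05 was reached by 69.7% of the 15679 genes in edgeR's quasi-likelihood test, 34.0% higher and 35.6% lower in shMEX3A. All 14 clear cell markers passed the low-count filter, of which NAPSA, at 0.415 ± 0.148 CPM in shCtrl, and KRT7, at 2.64 ± 0.823 CPM, were low. Markers of other cells were low apart from a few, and some of these moved with the arms. CD3E and FCGR3A (leukocyte), KDR and CLDN5 (endothelial), TTR (hepatocyte) and 5 of 6 erythroid markers had no count in any library. The erythroid markers bear on CA2 and SLC4A1, which red cells carry in large amounts. The summed fibroblast list ran from 18.2 to 19.5 CPM in shCtrl and from 123 to 133 CPM in shMEX3A, most of it COL1A1 (13.1 ± 0.730 and 117 ± 5.60 CPM). DCN, the other called gene among 3 tested of 8, rose from 4.86 ± 0.193 to 9.07 ± 0.861 CPM, and the remaining 6 stayed under 0.6 CPM on average in both arms. The summed leukocyte list ran from 7.64 to 8.72 CPM and from 10.6 to 11.1 CPM, most of it CD68 (7.07 ± 0.530 and 8.46 ± 0.140 CPM). ITGAM, the other tested leukocyte gene of 8, rose from 0.659 ± 0.209 to 2.01 ± 0.141 CPM. The summed endothelial list ran from 0.595 to 0.723 CPM and from 0.679 to 0.993 CPM, and within it CDH5 gave 2, 2 and 1 counts in shCtrl and 22, 22 and 10 in shMEX3A. Their part in the results below was not tested.

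Per length of transcript, the anion exchanger and the scaffold were by far the most abundant of the 8 genes. In shCtrl SLC4A2 stood at 45.5 ± 1.27 CPM per kilobase of merged exon and SLC9A3R1 at 28.1 ± 0.614. CA2 followed at 6.94 ± 0.540, SLC4A4 at 4.12 ± 0.165 and SLC4A7 at 3.77 ± 0.189 CPM per kilobase. CA12 (1.01 ± 0.0735), CA13 (0.280 ± 0.0454) and CA9 (0.0642 ± 0.0162) closed the order, all values being SD over 3 libraries. No 2 neighbours in this order overlapped, although SLC4A4 and SLC4A7 stood close. In shMEX3A SLC4A7 moved up to 5.14 ± 0.151 and overlapped with CA2 at 5.20 ± 0.381, and SLC4A4 dropped to rank 5 at 0.840 ± 0.0489 CPM per kilobase. With coding length in place of exon length SLC4A4 stood at rank 7 in shMEX3A, below CA12 and CA13, and the shCtrl order was as given.

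**Figure D1:**
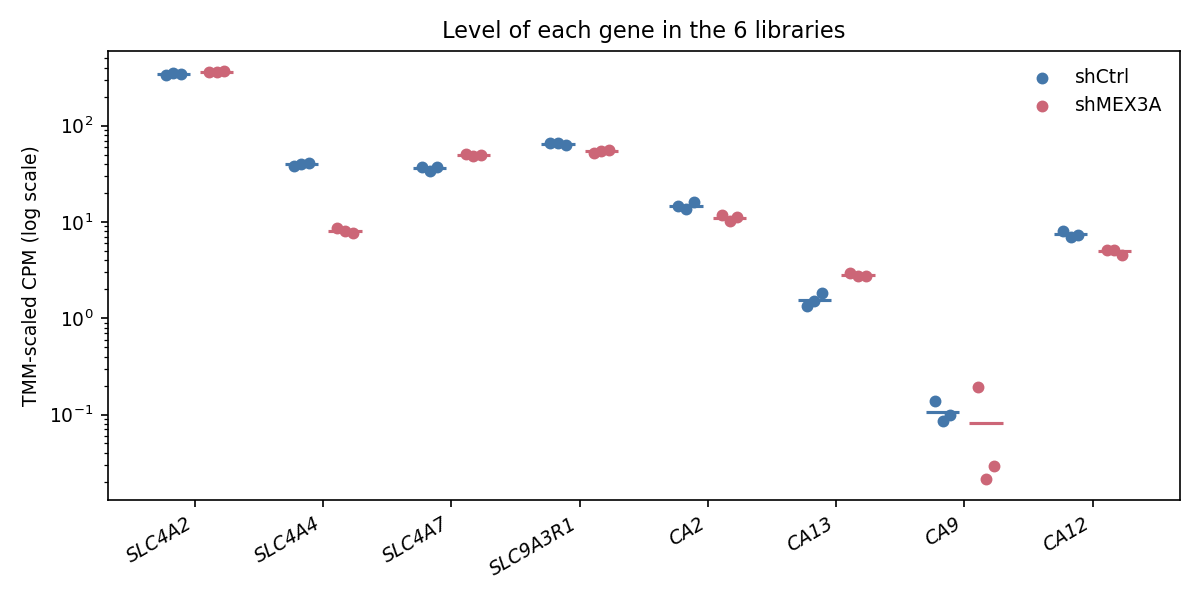
Level of each of the 8 genes in the 6 libraries as TMM-scaled CPM on a log axis, with points for libraries (blue shCtrl, red shMEX3A) and short lines for the mean of 3. SLC4A4 shows the widest gap, near 40 CPM in shCtrl and near 8 in shMEX3A, while SLC4A2 barely moves and CA9 stays under 0.2 CPM.

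All 7 tested genes passed the test, 3 higher and 4 lower in shMEX3A, beside 69.7% of all tested genes, and their libraries did not overlap between the arms in any of the 7, beside 72.3% of all tested genes. With offsets for GC content and transcript length the split was 2 higher and 5 lower, SLC4A2 having changed sides. Since this comparison helped to choose them, nothing is read from these counts. The median log2 fold change of the 7 was -0.27, beside -0.01 for all genes tested. RNA of whole cultures was measured, so fewer cells that express a gene and less RNA per cell cannot be told apart.

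SLC4A4, the electrogenic sodium bicarbonate cotransporter, was the member with the largest difference. It gave 37.9, 39.7 and 41.1 CPM in shCtrl and 8.60, 7.98 and 7.67 CPM in shMEX3A. All 3 shMEX3A libraries lay far below the controls, and the arms did not overlap. The log2 fold change was -2.29 (SE 0.061), a 4.89-fold lower level, and 59 of the tested genes had a larger fall. It ran from -2.33 to -2.26 when 1 library was left out. SLC4A4 maps to chromosome 4, positions 71062667 to 71572087, plus strand (GENCODE 29 on GRCh38), where its exons overlap those of no other gene.

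SLC4A7, the electroneutral sodium bicarbonate cotransporter, differed in the other direction. Its libraries gave 37.6, 34.2 and 37.0 CPM in shCtrl and 51.0, 48.1 and 49.2 CPM in shMEX3A. Every shMEX3A library was above every control. The log2 fold change was 0.44 (SE 0.045), a 1.36-fold higher level. SLC4A7 maps to chromosome 3, positions 27372721 to 27484420, minus strand, and also shares no exon base with another gene. The transcripts of the pair are alike in base composition, with a GC content of 39.3% in SLC4A4 and 37.2% in SLC4A7, and GC and length offsets left them apart at -2.18 and 0.55.

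The ratio of the carriers within each library combines both differences and needs no scaling between libraries. It is made of the same counts and is not a separate result. SLC4A7 over SLC4A4, per kilobase, was 0.991, 0.861 and 0.902 in the shCtrl libraries and 5.93, 6.03 and 6.42 in the shMEX3A libraries. The mean ratio thus went from 0.918 ± 0.0666 to 6.13 ± 0.256 (SD, n = 3), which is 6.67-fold higher. Among the 5 sodium-driven bicarbonate carriers of the SLC4 family (SLC4A4, SLC4A5, SLC4A7, SLC4A8 and SLC4A10), SLC4A4 held 50.9% ± 1.61 of the summed level per kilobase in shCtrl and 13.6% ± 0.509 in shMEX3A. SLC4A7 held 46.6% ± 1.88 and 83.4% ± 0.383. Their summed level was 8.08 ± 0.227 CPM per kilobase in shCtrl and 6.16 ± 0.206 in shMEX3A.

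**Figure D2:**
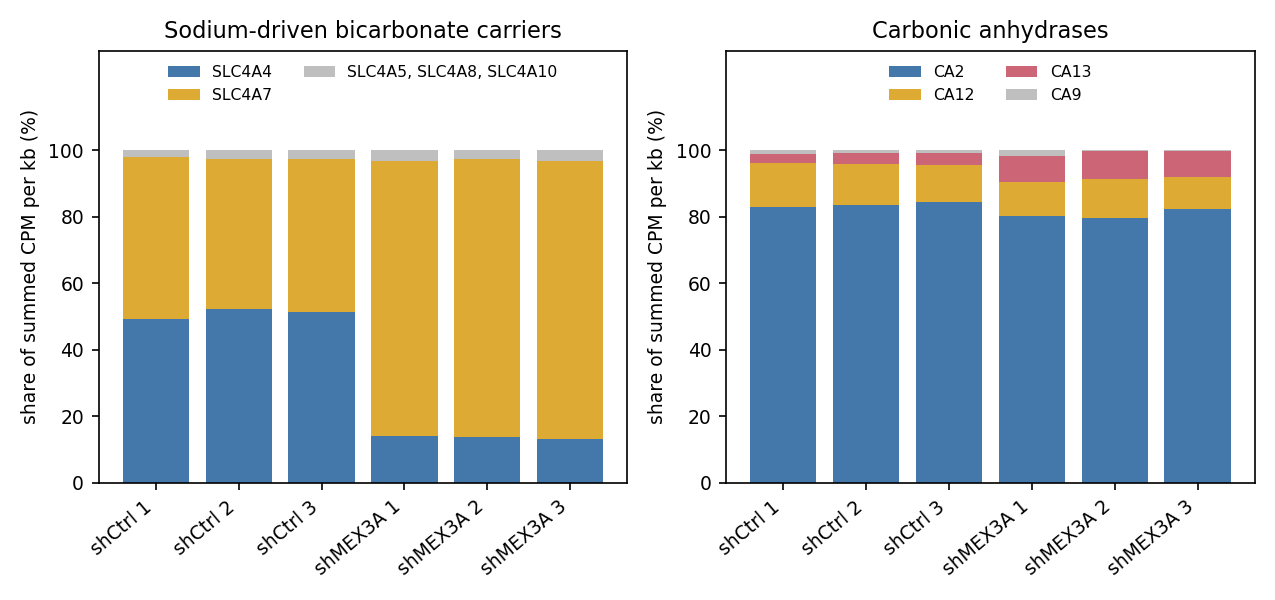
Share of the summed CPM per kilobase of merged exon held by each sodium-driven bicarbonate carrier (left) and by each of the 4 carbonic anhydrases (right), 1 bar for each library. SLC4A4 holds 49.2% to 52.3% of its group in shCtrl and at most 14.0% in shMEX3A, and CA13 goes from 2.89% to 3.70% up to 7.76% to 8.31%, while CA2 holds over 79% of the right-hand group in every library. By coding length, which is not drawn, CA2 leads the right-hand group by less.

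SLC4A2, the chloride-bicarbonate exchanger, was nearly level. Its libraries gave 339, 357 and 340 CPM in shCtrl and 360, 364 and 368 CPM in shMEX3A. The arms were adjacent, the lowest shMEX3A library standing just above the highest control. The log2 fold change was 0.08 (SE 0.030), a difference of 5.44%, and its sign depends on the scaling. With offsets for GC content and transcript length the value was -0.18 (SE 0.025), and the transcript has a GC content of 61.3%. It missed the threshold without a low-count filter (0.06) and without shCtrl replicate 1 (0.06), shCtrl replicate 3 (0.06), shMEX3A replicate 2 (0.08) or shMEX3A replicate 3 (0.07). No direction is therefore given for SLC4A2. Of its exon bases 13.8% lie under exons of CDK5 and a second gene, and the strand setting of the counting is not given in the sources used here. SLC4A2 made up 85.2% ± 0.654 of the summed level per kilobase of the 3 SLC4 members in shCtrl and 88.9% ± 0.400 in shMEX3A. It maps to chromosome 7, positions 151057210 to 151076527, plus strand.

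RefSeq lists several starts for these carriers, which counts per gene do not separate. Promoter windows (250 bases before a start to 50 after) were found for 6 of the 8 members, with 14 starts in all: 5 for SLC4A4, 4 for SLC4A2, 2 for SLC4A7 and 1 each for CA9, CA12 and SLC9A3R1. CA2 and CA13 were not matched. A pair of SLC4A4 starts is shown first because they differ in kind. The window of the outermost start has a GC content of 39.7%, and that of a start further in has 79.0%. From which of them the RNA came was not tested. Printed are 100 bases ahead of each start that lie in no GENCODE 29 exon (GRCh38.p14, RefSeq, 5′ to 3′), with the same for SLC4A7 and SLC4A2 for comparison of the members that differed in opposite directions or hardly at all. Capitals mark GCGTG in SLC4A7 and CACGTG in SLC4A2. The SLC4A2 stretch also holds GCGTG on the opposite strand, left in lower case.
SLC4A4, outermost start, chr4:71062560-71062659, plus strand: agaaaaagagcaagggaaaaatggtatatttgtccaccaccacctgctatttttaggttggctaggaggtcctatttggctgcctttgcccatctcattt
SLC4A4, inner start, chr4:71186657-71186756, plus strand: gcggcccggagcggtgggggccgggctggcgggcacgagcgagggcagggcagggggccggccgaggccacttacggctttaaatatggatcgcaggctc
SLC4A7, chr3:27484425-27484524, minus strand: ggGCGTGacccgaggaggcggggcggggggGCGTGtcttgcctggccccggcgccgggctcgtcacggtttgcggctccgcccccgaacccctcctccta
SLC4A2, inner start, chr7:151062417-151062516, plus strand: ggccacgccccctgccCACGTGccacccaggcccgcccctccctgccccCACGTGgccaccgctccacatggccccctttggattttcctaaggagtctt

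Motifs were searched on both strands of the 300-base windows. The HIF response element has ACGTG or, in other sites, GCGTG as its core. Of these ACGTG is found in 21.4% of all 35116 RefSeq windows, GCGTG in 36.5%, and CACGTG, which contains ACGTG on both strands, in 7.26%. A pair of overlapping SLC4A2 windows each held CACGTG 3 times, at the same 3 sites, and all 4 SLC4A2 windows held GCGTG, once or more. Whether HIF or any other factor binds the motifs counted here was not tested. None of the 5 SLC4A4 windows held ACGTG, and 2 held GCGTG once each, in both cases after the start. One SLC4A7 window held GCGTG 3 times and the other held neither motif. The CA12 window held GCGTG 2 times and no ACGTG, and that of SLC9A3R1 held neither. CA9 held ACGTG once on the opposite strand, beginning 18 bases before the start, and is shown with its reverse complement in capitals because this is the textbook response element of the gene.
CA9, chr9:35673896-35673925, plus strand: tctcgtttccaatgCACGTacagcccgtac

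CA9 was at the edge of detection in both arms. It gave 6, 3 and 4 counts in the shCtrl libraries and 8, 1 and 1 counts in the shMEX3A libraries. The arms overlapped, and the highest and the lowest values both came from shMEX3A. The sum was 13 counts in shCtrl (95% exact Poisson interval 6.92 to 22.2) and 10 in shMEX3A (4.80 to 18.4), which corresponds to 0.111 (0.0591 to 0.190) and 0.0801 (0.0384 to 0.147) CPM of the library totals. These intervals cover counting error only. A difference was not detectable at this depth, and no fold change is given. Of its exon bases 38.5% lie under exons of ARHGEF39, which gave 133 to 264 counts per library. CA9 lies on chromosome 9 from 35673856 to 35681159.

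CA12, the other membrane-bound enzyme, lay lower in shMEX3A. It gave 7.98, 6.91 and 7.36 CPM in shCtrl and 5.16, 5.16 and 4.51 CPM in shMEX3A. Each shMEX3A library was below each control, and the log2 fold change was -0.58 (SE 0.096). CA12 maps to chromosome 15, positions 63321378 to 63382161, minus strand, with no exon base under another gene. It was the more abundant membrane enzyme in every library, CA9 being nearly silent.

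The cytosolic pair went in opposite directions. CA2, the fast and widely expressed enzyme, gave 14.6, 13.7 and 15.9 CPM in shCtrl and 11.8, 10.2 and 11.2 CPM in shMEX3A. The highest shMEX3A library lay below the lowest control, and the log2 fold change was -0.42 (SE 0.074). With offsets for GC content and length it shrank to -0.19 (SE 0.072). CA13 gave 1.33, 1.495 and 1.82 CPM in shCtrl and 2.98, 2.76 and 2.74 CPM in shMEX3A, from 53 to 130 counts per library. All 3 shMEX3A libraries were above all controls, at a log2 fold change of 0.87 (SE 0.163), the widest error among the tested members. It ranged from 0.76 to 1.00 when 1 library was left out.

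The genes of this pair are neighbours. CA13 lies on chromosome 8 from 85220587 to 85284073 and CA2 from 85463852 to 85481493, both on the plus strand, with 179778 bases between them. CA1 and CA3, which belong to the same cluster, were nearly silent, with no count for CA1 in any library and 2 counts in all for CA3. CA2 over CA13, per kilobase, was 28.7, 23.8 and 22.8 in shCtrl and 10.3, 9.59 and 10.6 in shMEX3A. CA2 nevertheless remained the highest of the 4 members per kilobase in both arms. Per kilobase of merged exon it held 83.6% ± 0.674 of the summed level of the 4 members in shCtrl and 80.8% ± 1.36 in shMEX3A. CA13 went from 3.37% ± 0.425 to 7.96% ± 0.307, while the share of CA12 overlapped between the arms (12.2% ± 0.918 and 10.5% ± 1.08). The sum of the 4 was 8.30 ± 0.603 CPM per kilobase in shCtrl and 6.44 ± 0.449 in shMEX3A, with no overlap between the arms.

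SLC9A3R1 binds the tails of sodium-proton exchangers and other membrane proteins through PDZ domains and ties them to ezrin. It gave 66.1, 65.9 and 63.5 CPM in shCtrl and 51.8, 54.8 and 56.0 CPM in shMEX3A. All shMEX3A libraries were below the controls, with a log2 fold change of -0.27 (SE 0.039), a 1.20-fold lower level. It maps to chromosome 17, positions 74748652 to 74769353, and 11.3% of its exon bases lie under a microRNA gene and a long non-coding gene.

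**Figure D3:**
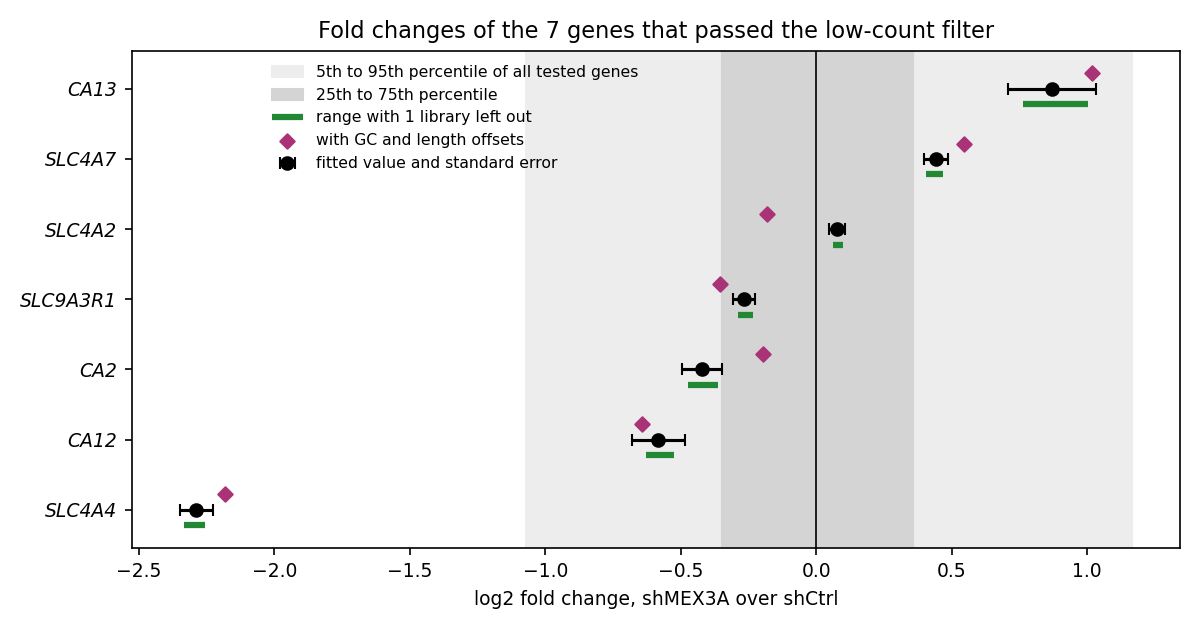
Log2 fold change (shMEX3A over shCtrl) of the 7 tested members with its standard error (black), the range when 1 library is left out (green) and the value with GC and length offsets (diamonds), over bands holding the middle of all tested genes. SLC4A4 at -2.29 lies outside the 5th to 95th percentile band (-1.07 to 1.17), the other 6 lie inside it, and the offsets turn the sign of SLC4A2 and shrink CA2.

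The wider set of genes for pH regulation was counted in the same fit. Of 102 listed genes, 66 passed the low-count filter, 27 rose, 16 fell and 23 did not pass the test. That is 40.9% higher and 24.2% lower, beside 34.0% and 35.6% of all tested genes, with a median log2 fold change of 0.05 beside -0.01. Of these calls 2 of the 27 and 3 of the 16 reached the filter's minimum of 0.247 CPM throughout only the arm where they were high. The filter favoured a difference in these, and nothing is read from their calls. SLC9A9 passed through shMEX3A alone and SLC9B1 through shCtrl alone, and neither was called. With GC and length offsets 32 rose and 19 fell, where 10133 of all 13801 tested genes were called in either direction. Those calls are not split by direction here, so no excess in either direction is read from the counts with offsets. Counts for each list below are to be read beside the 34.0% higher and 35.6% lower of all tested genes. The lists were drawn up with earlier results of these data known. Most genes named from them were picked by smallest p in this same comparison, so their adjusted p-values describe a selected few.

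The other SLC4 genes included 2 of 4 tested that rose and 1 that fell. SLC4A11, a proton and water carrier of the family, rose from 11.6 ± 0.432 to 17.2 ± 0.725 CPM (0.57 on the log2 scale, SE 0.066, adjusted p = 9.67e-10, edgeR). The anion exchanger SLC4A3 rose from 16.5 ± 0.602 to 22.6 ± 0.783 CPM. SLC4A8, a sodium-driven chloride-bicarbonate exchanger, fell from 2.35 ± 0.0294 to 1.64 ± 0.139 CPM. SLC4A1, the exchanger of red cells, had no count.

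Among the genes listed as SLC26 anion exchangers 2 of 5 tested rose and 2 fell. SLC26A2, a sulphate carrier, rose from 114 ± 5.45 to 307 ± 7.75 CPM (1.43 on the log2 scale, SE 0.034, adjusted p = 8.96e-30, edgeR). SLC26A11 rose by 0.49 on the log2 scale and SLC26A1 fell by 0.84. SLC26A10, which RefSeq now lists under the pseudogene name SLC26A10P, was the other one called lower, at -1.04. It passed the low-count filter through shCtrl alone. Its libraries overlapped between the arms, 51.7% of its exon bases lie under other genes, and its call was lost with DESeq2 (adjusted p = 0.110) and when any library other than shCtrl replicate 2 was left out (adjusted p = 0.0511 to 0.140). SLC26A6, a bicarbonate exchanger of epithelia, had a log2 fold change of 0.10 (adjusted p = 0.104).

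Of the sodium-proton exchangers, the partners of SLC9A3R1, 4 of 10 tested rose and 2 fell. SLC9A3 (NHE3), the classical binding partner of the scaffold, went from 1.42 ± 0.262 to 2.79 ± 0.353 CPM, with 56.7% of its exon bases under other genes. SLC9A7, an exchanger of the Golgi, fell from 25.1 ± 1.96 to 16.3 ± 0.421 CPM, and SLC9A2 fell by 1.82 on the log2 scale from 1.71 ± 0.461 CPM.

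Scaffolds and regulators of the exchangers were split, with 4 of 13 tested higher and 4 lower. CHP1, a calcium-binding cofactor of sodium-proton exchangers, fell from 596 ± 22.9 to 426 ± 14.5 CPM (-0.48 on the log2 scale, SE 0.032, adjusted p = 4.24e-16, edgeR). STK39 (SPAK), a kinase of ion carriers, fell by 0.50 and the kinase WNK1 rose by 0.35 on the log2 scale. Moesin (MSN), one of the ezrin family that binds SLC9A3R1, rose by 0.24. PDZK1, a further PDZ scaffold of the same kind as SLC9A3R1, was named after its values were seen. It stood at 1.16 ± 0.160 CPM in shCtrl and 0.229 ± 0.0741 CPM in shMEX3A, on 43 to 48 and 7 to 10 counts per library, and passed the filter through shCtrl alone, so no p is given. SLC9A3R2, the closest relative of SLC9A3R1, had a log2 fold change of -0.10 (adjusted p = 0.0645).

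Only 3 of 11 other carbonic anhydrases were tested. CA11, a secreted relative without enzyme activity, fell from 32.2 ± 0.992 to 15.5 ± 1.00 CPM (-1.06 on the log2 scale, SE 0.057, adjusted p = 5.20e-19, edgeR). CA8, which is also inactive, rose from 1.49 ± 0.250 to 3.28 ± 0.274 CPM (1.12, SE 0.159). CA4, a membrane-bound active enzyme, gave 24, 21 and 22 counts in shCtrl and 2, 4 and 0 in shMEX3A. It passed the filter through shCtrl alone, so its place among the 2 called lower is not read as a result. Counting the 12 isozymes with enzyme activity, CA2 held 81.0% ± 0.784 of the summed level per kilobase of merged exon in shCtrl. In shMEX3A it held 80.2% ± 1.78, and the arms overlapped. These shares, too, depend on the use of merged exon length.

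Lactate leaves cells together with a proton, and here the carrier SLC16A3 and the chaperone BSG differed in opposite directions. SLC16A3 (MCT4), the lactate exporter of glycolytic cells, rose from 21.9 ± 0.825 to 94.5 ± 1.62 CPM (2.11 on the log2 scale, SE 0.042, adjusted p = 1.22e-32, edgeR). BSG (basigin), which escorts MCT1 and MCT4 to the membrane, fell from 890 ± 29.6 to 294 ± 11.0 CPM (-1.60, SE 0.032, adjusted p = 5.85e-32, edgeR). SLC16A1 (MCT1) had a log2 fold change of 0.07 (adjusted p = 0.0662). EMB (embigin), an alternative chaperone, rose from 7.22 ± 0.320 to 13.9 ± 1.28 CPM. SLC16A3 over BSG, per kilobase, went from 0.0104 ± 0.000659 to 0.136 ± 0.00578.

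The proton-pumping V-ATPase had 23 of 25 listed genes tested, of which 10 rose and 3 fell. ATP6V0C, the proteolipid ring subunit, rose from 166 ± 9.13 to 411 ± 12.7 CPM (1.30 on the log2 scale, SE 0.035, adjusted p = 1.79e-24, edgeR), with 72.1% of its exon bases under other genes. ATP6V0A1 rose by 0.87, and ATP6V0E1 and ATP6V0B fell by 0.39 and 0.36 on the log2 scale. The median over the 23 was -0.02. ATP6V0A4, named after its values were seen, had 3, 4 and 11 counts in shCtrl and 41, 56 and 45 in shMEX3A, and passed the filter through shMEX3A alone. TMEM175, a lysosomal channel, rose by 0.40. Of the proton sensors, ASIC1, an acid-gated sodium channel, fell from 14.4 ± 1.39 to 6.04 ± 0.127 CPM.

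**Figure D4:**
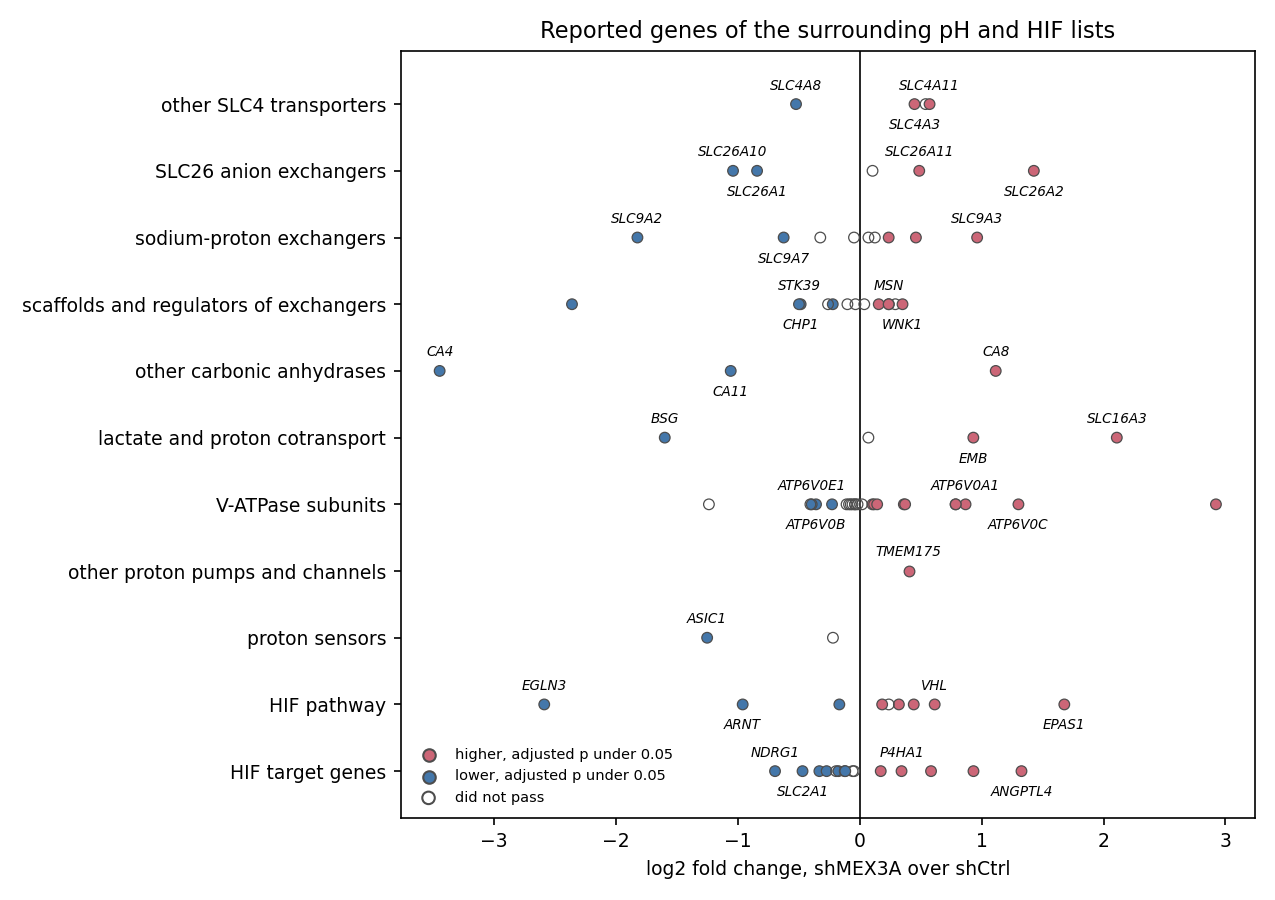
Log2 fold change (shMEX3A over shCtrl) of the tested genes reported here in each surrounding list, 1 point a gene, red for those higher and blue for those lower at an adjusted p under 0.05 and open for the rest. Most lists hold points on both sides of 0, with SLC16A3 (2.11) and BSG (-1.60) at opposite ends of the lactate row.

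CA9 and CA12 are textbook HIF targets, and the HIF lists were counted for that reason. Of 9 tested genes of the HIF pathway 5 rose (55.6%) and 3 fell (33.3%), beside 34.0% and 35.6% of all tested genes. EPAS1 (HIF2A) rose from 409 ± 8.59 to 1309 ± 6.85 CPM (1.68 on the log2 scale, SE 0.030, adjusted p = 5.86e-34, edgeR) and VHL by 0.61 on the log2 scale. ARNT, the partner of both HIF alpha subunits, fell from 111 ± 1.01 to 57.0 ± 1.41 CPM and EGLN3, an oxygen-sensing hydroxylase, by 2.59 on the log2 scale. Of 15 HIF target genes, all tested, 5 rose (33.3%) and 7 fell (46.7%) with a median of -0.12, beside 34.0% and 35.6% of all tested genes and a median of -0.01. ANGPTL4 rose by 1.33 and P4HA1 by 0.34, while NDRG1 fell by 0.69 and the glucose carrier SLC2A1 by 0.47. ALDOA, which was not called, stood at 13.9 ± 2.58 CPM in shCtrl and 12.2 ± 1.31 in shMEX3A. Of its exon bases 53.5% lie under other genes, so its row may miss reads, which was not tested.

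The 5 genes nearest to SLC4A4 in pattern were ADAMTS3, CPE, HTRA1, PDCL3 and PELI2. They were ranked among the 10086 genes with an average of at least 3 on the log2 CPM scale, by the distance of log2 CPM, centred on each gene's mean, over the 6 libraries. The distances ran from 0.150 for ADAMTS3 to 0.329 for PELI2, and the log2 fold changes from -2.10 (PDCL3) to -2.49 (PELI2). A fall of like size follows from this way of ranking and is not a separate result.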

How the data were processed

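The authors deposited 1 table of raw counts, genes in rows and the 6 libraries in columns. The tools named per the submitters' processing notes are edgeR 4.0.16, HTSeq 2.0.4, fastp 0.20.0 and STAR, and the build is GRCh38. What each did, the annotation and the strand setting: not given in the sources used here. Library totals ran from 34662635 to 48228216 counts, and rows without a RefSeq symbol held at most 0.0601% of them. Columns were matched to samples by library name. Libraries of an arm differed by more than sampling noise (chi-square per degree of freedom 2.69 to 6.15), so none was taken as a duplicate.

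The test on the counts was that of edgeR 4.0.16 in R 4.3.3 (filterByExpr, TMM, robust quasi-likelihood fit with 4 residual degrees of freedom, Benjamini-Hochberg over 15679 genes, threshold 0.05). CPM are TMM-scaled. Standard errors come from the F statistic. Lengths, GC content (longest transcript), positions and exon overlap come from GENCODE 29, promoters from RefSeq GRCh38.p14. Alternatives were DESeq2 1.42.0 (tool and size factors), upper-quartile factors, no filter, 1 CPM in 3 libraries, limma 3.58.1 voom, a replicate block, mitochondrial genes left out, GC and length offsets (splines with 5 degrees of freedom, 13801 genes) and each library left out. Beside the members and MEX3A, the text names the 2 called genes with the smallest p per list and direction and the 5 nearest SLC4A4; some genes that the rule names are not reported here, and genes outside it, apart from markers and controls, were named after their values were seen. The members and lists were chosen with earlier results of these data known.

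On simulated data for this comparison over 15667 genes, 42 of 65 genes with a simulated 1.25-fold change passed. At 1.5-fold 56 of 66 passed, and at 2-fold all 65. Among the 167 calls 4 were false. With a GC trend added (13798 genes), 6657 genes were called without offsets and 166 with them, where 173 had been changed. Of these 173 genes, 152 were among the 166 calls.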

Additional observations from a re-analysis of the deposited data

How the results depend on the processing

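Offsets for GC content and length reversed SLC4A2 (-0.18 on the log2 scale in place of 0.08; the cause was not tested). The same offsets gave -2.18 for SLC4A4, 0.55 for SLC4A7, -0.35 for SLC9A3R1 and -0.19 for CA2, each moved by more than the spread between replicates but in the same direction. The other 100 alternative values for tested members stayed within that spread. With offsets 2 members were higher and 5 lower. All 120 counts of calls stayed within 1.5 times. MEX3A ranged from -1.68 to -1.77 with 1 library left out and reached -1.86 with offsets. Of the values for other named genes 618 kept their call and 9 lost it, among them SLC26A10. Offsets shared 8704 calls of the 10925. Replicate numbers did not pair the arms (correlations of -0.0309, 0.0772 and -0.0769, with 2 of 6 libraries correlating best with their own number), and the replicate block called 10751 genes, with SLC4A4 at -2.29 and MEX3A at -1.73. Depth limits CA9, where 3 counts equal 0.0622 to 0.0865 CPM.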

Other observations

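CA5B, a mitochondrial carbonic anhydrase, is listed at 0 in all 6 libraries, whereas its pseudogene CA5BP1 had 315 to 381 counts in shCtrl and 459 to 575 in shMEX3A, and 22.3% of the CA5B exon bases lie under other genes. A combined row of both genes, CA5BP1-CA5B, held 24 counts over all of shCtrl and 38 over all of shMEX3A. EGLN2, an oxygen-sensing hydroxylase with 30.6% of its exon bases under other genes, had 2 counts in all of shCtrl and 7 in all of shMEX3A. The combined row RAB4B-EGLN2 had no count in either arm. How reads of overlapping genes were assigned was not tested, so the sums over carbonic anhydrases leave CA5B out in effect.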
